A study of Mus musculus with 2 samples.

Results

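Myoglobin, 4 hemoglobin chain genes and the erythroid heme enzyme gene Alas2 were followed through long-read RNA sequencing of mouse heart. The 6 genes were taken by name from the transcript tables of both libraries: Mb, Hba-a1, Hba-a2, Hbb-bs, Hbb-bt and Alas2. They are 6 of 15031 annotated genes with a read, and all 6 had reads in each library. The series formed 1 group of 2 libraries from the hearts of female B6CASTF1/J hybrid mice aged 18 to 20 months, untreated as far as the labels say, and each library used 2 µg of RNA. The labels list different biological samples but a common donor entry, and the number of animals was not stated. Comparisons between replicate 1 and replicate 2 therefore describe 2 samples and no condition, and their tests weigh a difference against counting error only. No label says whether blood was washed out of the hearts.

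Myoglobin is the oxygen-binding protein of heart and slow skeletal muscle cells, where it stores oxygen and eases its movement toward mitochondria. Hemoglobin carries oxygen inside red blood cells and is built from alpha chains (Hba-a1 and Hba-a2) and beta chains (Hbb-bs and Hbb-bt), each chain holding a heme group. Red cell precursors make the heme with Alas2, the erythroid form of the enzyme that begins heme synthesis, whereas other tissues use Alas1. Reticulocytes, the youngest circulating red cells, still contain globin RNA, so blood held in a tissue carries it along.

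The libraries held 630211 and 664319 mouse reads, so 1 read was worth 1.61 CPM in replicate 1 and 1.48 CPM in replicate 2. CPM means reads per 1000000 mouse reads, after TMM scaling of the library sizes. The heart muscle markers carried 36104 and 35775 reads over 9 of 9 genes, so the defining genes of the labelled tissue were present. The 7 skeletal muscle markers had 4 reads in each library, with Myh2, Myh4, Tnnt3 and Pvalb at 0. Among the red cell markers, Slc4a1, the anion exchanger of the membrane, Ahsp, the alpha globin chaperone, and Epb42 had 0 reads in both libraries, and Hemgn had 1 read in replicate 2.

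The DNA before the starts of these genes is shown first, as a description. Its part in any difference between the libraries was not tested. The sequences come from RefSeq's table of promoter windows on GRCm38.p6, each 300 bases long, in which all 6 genes matched, Mb with 3 windows and the others with 1. Each sequence below is cut so that it ends before the annotated starts of both RefSeq and GENCODE M21, and it reads 5′ to 3′ on the gene's own strand. Capitals mark matches on either strand to short motifs. These were TATAA, the letters of a TATA box; CCAAT, those of a CCAAT box; CACCC, a box bound by KLF factors; GATAA, the core bound by GATA factors; and CAGCTG, an E-box.
Mb, chr15:77022788-77023037, minus strand: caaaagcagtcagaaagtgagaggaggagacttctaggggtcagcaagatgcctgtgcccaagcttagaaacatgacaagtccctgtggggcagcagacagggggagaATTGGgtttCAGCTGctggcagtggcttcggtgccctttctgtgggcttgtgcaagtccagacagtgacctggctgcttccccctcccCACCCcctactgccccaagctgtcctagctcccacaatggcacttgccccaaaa
Hba-a2, chr11:32296242-32296488, plus strand: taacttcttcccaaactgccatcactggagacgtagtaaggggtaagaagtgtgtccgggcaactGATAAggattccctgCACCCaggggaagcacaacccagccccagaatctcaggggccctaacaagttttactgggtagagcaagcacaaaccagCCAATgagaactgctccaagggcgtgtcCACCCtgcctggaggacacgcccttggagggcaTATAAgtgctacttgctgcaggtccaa
Hbb-bs, chr7:103827929-103828178, minus strand: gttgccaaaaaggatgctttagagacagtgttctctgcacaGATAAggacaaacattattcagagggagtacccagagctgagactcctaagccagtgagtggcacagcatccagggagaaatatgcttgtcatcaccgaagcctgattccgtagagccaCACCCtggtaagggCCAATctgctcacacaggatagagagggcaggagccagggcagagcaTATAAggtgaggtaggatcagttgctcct
Alas2, chrX:150547167-150547374, plus strand: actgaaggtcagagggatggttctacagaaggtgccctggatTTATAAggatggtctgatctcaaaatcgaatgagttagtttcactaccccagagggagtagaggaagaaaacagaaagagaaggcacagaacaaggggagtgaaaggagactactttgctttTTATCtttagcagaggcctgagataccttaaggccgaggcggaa

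The Hba-a2 and Hbb-bs sequences held matches to 4 of the motifs, and in each the order toward the start was the GATA core, the KLF box, the CCAAT box and the TATA box. Hba-a2 held another KLF box match between its CCAAT box and its TATA box. In Hba-a2 the GATA core began 185 bases and the TATA box 30 bases before the RefSeq start, and in Hbb-bs they began 209 and 29 bases before it. The Alas2 window held a GATA core on the opposite strand, 86 bases before the RefSeq start, and far upstream an overlapping pair of TATA box matches on opposite strands. Its 3 KLF box matches, on the opposite strand at 40, 35 and 30 bases before the RefSeq start, lie beyond the part printed. The Mb window held the E-box 133 bases before the start, a KLF box, and a CCAAT box on the opposite strand. The letters of the GATA core and of the TATA box were not in it. An AAAATAG, letters found in many sites of the muscle factor MEF2, began 4 bases before the Mb-203 start and ran across it. These are letter matches and not tested sites. Over all 32851 promoter windows of 300 bases, 24.9% held the TATA box letters on either strand, 37.4% the CCAAT box, 57.5% the KLF box, 25.4% the GATA core, 16.3% the E-box and 4.22% the MEF2 letters.

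The 2 alpha genes lie on the plus strand of chromosome 11 and were almost the same in sequence. Their promoter windows were identical over the 297 aligned bases. Their leading transcripts, Hba-a1-201 and Hba-a2-201, differed at 1 of 538 aligned bases. That base is C381T, counted from the A of the start codon with the Hba-a1 base first, in exon 3 at the last place of a codon. It is the capital letter in these coding windows.
Hba-a1, chr11:32284331-32284355, plus strand: tgcctctctggaCaaattccttgcc
Hba-a2, chr11:32297148-32297172, plus strand: tgcctctctggaTaaattccttgcc

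The 2 beta genes on chromosome 7 likewise differed at 1 of 441 coding bases, C417T with the Hbb-bs base first. Their remaining parts were less alike, with 34 substitutions over 127 aligned bases from the stop codon onward and 74.7% identity between the promoter windows.
Hbb-bs, chr7:103826680-103826704, minus strand: ggctggagtggcCgctgccctggct
Hbb-bt, chr7:103812671-103812695, minus strand: ggctggagtggcTgctgccctggct
Reads of the alpha pair can therefore be told apart by 1 base and by the surrounding annotation only, and the split between Hba-a1 and Hba-a2 is uncertain. The sum of a pair does not depend on that split. Alleles of the 2 parental strains were counted together. The sequences and differences given here are those of the reference, and whether the alleles of both parental strains carry them was not tested.

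Blood globin RNA made up 2.98% of the mouse reads of replicate 1 and 1.19% of those of replicate 2. The 4 genes summed to 18801 and 7903 reads, or 30254 and 11731 CPM, a 2.58-fold difference [2.51 to 2.65, exact 95% interval]. All 5 blood genes were higher in replicate 1 and passed the test. Mb was higher by 1.11-fold and passed it as well. Of 7545 tested genes 2.07% passed in either direction, 0.861% higher in replicate 1 and 1.21% higher in replicate 2.

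The alpha chain gene Hba-a1 had 10349 reads in replicate 1 and 4361 in replicate 2 (16653 and 6473 CPM). It ranked 2 among all genes in replicate 1 and 14 in replicate 2, and its fold was 2.57 [2.48 to 2.67]. Hba-a2, the other alpha chain, had 2722 and 1196 reads (4380 and 1775 CPM), a 2.47-fold difference [2.30 to 2.64]. Replicate 1 was the higher library for both alpha genes, and the intervals of the 2 folds overlapped.

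Hbb-bs, the more abundant beta chain, had 4861 and 2007 reads (7822 and 2979 CPM), a 2.63-fold difference [2.49 to 2.77]. Hbb-bt had 869 and 339 reads (1398 and 503 CPM), a 2.78-fold difference [2.45 to 3.16]. Alas2 had 85 and 36 reads (137 and 53.4 CPM), a 2.56-fold difference [1.71 to 3.89] whose width reflects its low count. The adjusted p of Alas2 in the exact binomial test was 9.73e-05, Benjamini-Hochberg over all tested genes. Fewer blood cells and less RNA per blood cell cannot be told apart in such bulk samples.

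Mb, the myoglobin gene, had 4765 reads in replicate 1 and 4657 in replicate 2 (7668 and 6913 CPM, 7290 ± 534, SD, n = 2). It ranked 14 and 12. Its 1.11-fold difference [1.07 to 1.16] passed the exact binomial test at an adjusted p of 5.43e-05. The call was lost at an adjusted p of 0.175 with reads of known transcripts alone, of 0.0669 without the genomic class described further on, and of 0.662 with library sizes taken from the ERCC control RNAs. For each Mb read there were 3.95 globin reads in replicate 1 and 1.70 in replicate 2, a 2.32-fold difference in that ratio [2.21 to 2.44]. With reads of known transcripts alone the ratios were 12.2 and 5.26, a 2.31-fold difference [2.14 to 2.50], because most Mb reads lie in a new model of 1 exon described further on. The mean level of Mb was then 3481 CPM of known-transcript reads.

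**Figure D1:**
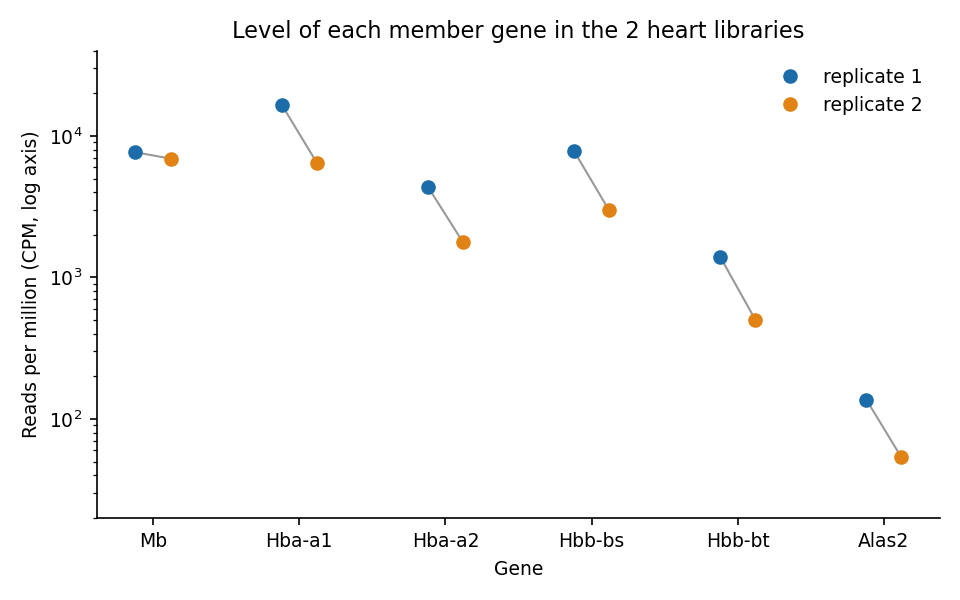
Level of each gene in CPM (log axis) in replicate 1 and replicate 2, with a line joining the 2 libraries of a gene. The 5 blood genes drop from replicate 1 to replicate 2 by near-parallel steps, while Mb stays at 7668 and 6913 CPM.

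The order of the genes was compared per kilobase of each gene's leading known transcript, although 1 long read counts once whatever the length of its transcript. In replicate 1 the order was Hba-a1 at 23825 CPM per kilobase, Hbb-bs at 12456, Hba-a2 at 7906, Mb at 6945, Hbb-bt at 1989 and Alas2 at 67.1. In replicate 2 it was Hba-a1 at 9261, Mb at 6261, Hbb-bs at 4744, Hba-a2 at 3204, Hbb-bt at 716 and Alas2 at 26.2. Mb thus stood below Hbb-bs and Hba-a2 in replicate 1 and above both in replicate 2, while Hbb-bs lay above Hba-a2 in both. With reads of known transcripts alone Mb stood below both in each library, at 1364 reads per kilobase against 4814 for Hba-a2 in replicate 1 and at 1322 against 2112 in replicate 2. Hba-a1, Hbb-bt and Alas2 kept their places under both counts.

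Within the blood reads the make-up was nearly the same in both libraries. Alpha chains took 69.5% of the globin reads in replicate 1 [68.9 to 70.2] and 70.3% in replicate 2 [69.3 to 71.3], or 2.28 and 2.37 alpha reads for each beta read. Hba-a1 took 79.2% and 78.5% of the alpha reads, and Hbb-bs 84.8% and 85.5% of the beta reads. Alas2 made up 0.450% and 0.453% of the Alas2 and globin reads together. None of the 4 differences passed Fisher's exact test (adjusted p of 0.573 for the first 3 and 1 for Alas2, Benjamini-Hochberg over 4). The intervals of the differences, replicate 1 minus replicate 2, ran from -1.99 to 0.417 percentage points for the alpha share. They ran from -0.576 to 1.99 for the Hba-a1 share, from -2.38 to 1.02 for the Hbb-bs share and from -0.197 to 0.161 for Alas2. Within counting error, a shift in the alpha share or the Hbb-bs share was thus bounded to a few points, beside a 2.58-fold difference in the sum. The Hba-a1 share gives no such bound, because the split of reads between the 2 alpha genes is uncertain.

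**Figure D2:**
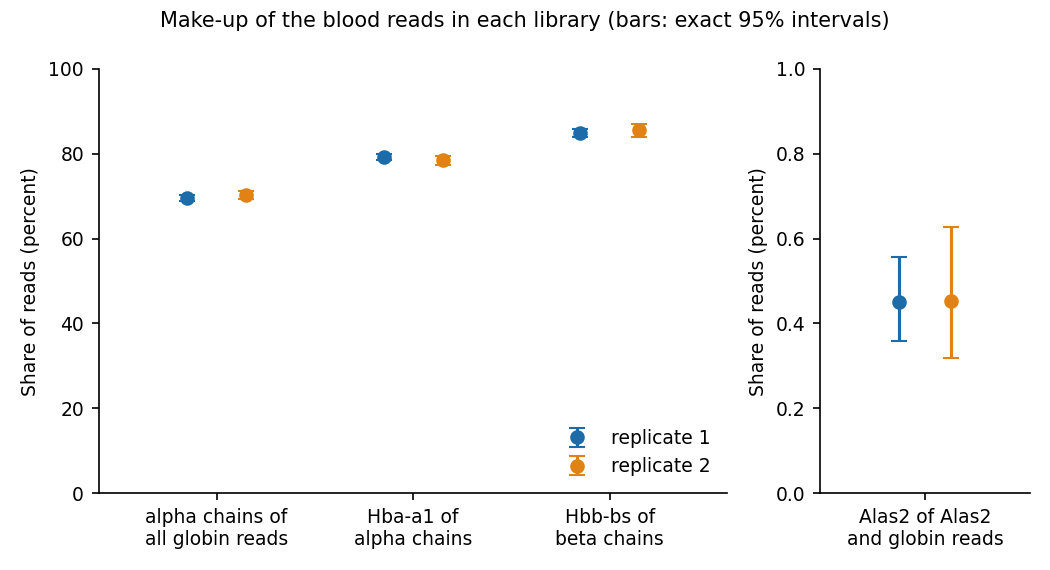
Share of reads in percent: alpha chains among all globin reads, Hba-a1 among alpha reads, Hbb-bs among beta reads and, on its own axis, Alas2 among Alas2 and globin reads. Points are the 2 libraries and bars exact 95% intervals, which overlap in each of the 4 measures.

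Genes of atrial muscle differed in the opposite direction from the blood genes. All 4 markers were higher in replicate 2 and passed the test, for example Nppa, atrial natriuretic peptide, at 583 and 1404 reads and Myl4, an atrial myosin light chain, at 274 and 803 reads. Myl7 had 170 and 431 reads and Sln, sarcolipin, 95 and 271. Summed, they stood at 1806 and 4318 CPM. Of the 9 heart muscle markers 5 passed as higher in replicate 1, with a median log2 ratio of 0.17 beside 0.15 for Mb, and their summed levels were 58098 and 53102 CPM. The largest difference of the 5 was that of Atp2a2, the calcium pump of the sarcoplasmic reticulum, at 1.15-fold. The other 4 were Pln, Myh6, Myl3 and Myl2. Unscaled totals left 3 of the 9 past the test, as did known transcripts alone with 8 tested, and library sizes from ERCC reads left 1, with a ratio above 0 in 6 of 9. The part of these differences in the results on globins and Mb was not tested.

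Markers of other blood cells were sparse. Of the 6 platelet markers Pf4, platelet factor 4, had 32 and 22 reads and did not pass, Gp1bb and Ppbp had 0 and 3 reads each, Itga2b had 2 and 0, and Gp9 and Treml1 had none. The 6 neutrophil markers summed to 4 reads in replicate 1 and 0 in replicate 2, from S100a8 (3) and Retnlg (1). The 7 lymphocyte markers summed to 3 and 24 reads, led by Cd79a at 1 and 13, which did not pass (adjusted p = 0.0792, exact binomial test), and by Cd79b and Trbc2. Of the 6 macrophage and monocyte markers Lyz2, lysozyme, was higher in replicate 2 at 64 and 123 reads, and C1qc and C1qa did not pass, at 35 and 38 and at 27 and 35 reads. Of the 5 endothelial markers Fabp4 was higher in replicate 2 at 357 and 619 reads (a call lost with known transcripts alone), while Eng (77 and 68) and Egfl7 (65 and 65) did not pass. Summed levels were 54.7 and 41.6 CPM for platelets, 251 and 353 CPM for macrophages and monocytes, and 846 and 1162 CPM for endothelium. Fabp4 alone held 574 and 919 CPM of the endothelial sum, and Lyz2 103 and 183 CPM of the macrophage and monocyte sum. The remaining endothelial markers, Pecam1 (19 and 22 reads) and Cdh5 (8 and 9), did not pass. The part of these cells in the globin difference was not tested.

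Among the other globin genes 2 of 13 had a read. Cygb, cytoglobin, a globin of fibroblast-like cells, had 27 and 24 reads and did not pass. Hbq1b, an alpha-like gene, had 1 read in replicate 2. The embryonic genes Hba-x, Hbb-y and Hbb-bh1 and the nerve globin Ngb had none.

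Heme synthesis was measured through 11 genes besides Alas2, all with reads and 10 tested. Alas1, the form used outside red cells, was 1.97-fold higher in replicate 1 at 320 and 176 reads (adjusted p = 3.49e-11, exact binomial test), the 1 gene of the list to pass. Urod had 100 and 100 reads, Slc25a39, a mitochondrial carrier, 79 and 97, and Fech, which inserts iron into heme, 93 and 79. The median log2 ratio of the list was 0.09, beside -0.000527 over all 7545 tested genes, and it turned to -0.02 with library sizes from ERCC reads.

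Heme breakdown and iron handling gave 0 calls among 8 tested genes, beside 2.07% of all tested genes. Fth1 and Ftl1, the ferritin chains, had 2503 and 2797 and 264 and 350 reads. Hmox2, a heme oxygenase, had 52 and 53 reads and Slc40a1, the iron exporter ferroportin, 22 and 24. The median log2 ratio was -0.17. With library sizes from ERCC reads, Fth1 and Ftl1 passed as higher in replicate 2.

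Genes of the red cell membrane and its enzymes gave 0 calls among 7 tested of 20, beside 2.07% of all tested genes. Low counts limit this number. Sms, a gene with about the globins' ratio at 37 and 15 reads, did not pass (adjusted p = 0.0531, exact binomial test). Most of the tested membrane genes had fewer reads than Sms. Ank1, ankyrin, which heart muscle also expresses, had 204 and 182 reads. Bpgm, the enzyme that makes bisphosphoglycerate, had 65 and 49, Sptb, a spectrin chain, 23 and 17, and Epb41 15 and 19. The median log2 ratio was 0.28. Erythroid regulators and genes of late red cell stages gave 0 calls among 6 tested of 14, beside the same 2.07%, with a median log2 ratio of 0.37. Their most abundant members were Mkrn1 (72 and 57 reads), Bnip3l (69 and 60), which is needed for clearing mitochondria from red cells, Bcl2l1 (27 and 52) and Fam220a (37 and 30). Of the erythroid transcription factors Klf1, Gata1 and Nfe2 had no reads, which allows up to 3 reads each in a library. Tal1 had 1 read in each library. With the genomic class left out, the membrane list had 1 call among 6 tested and a median log2 ratio of 0.99, the gene called being Bpgm at 65 and 28 reads. Bpgm thus lost reads in replicate 2 only, as did Epb41, left with 15 and 9. Ank1 and Sptb lost reads in both libraries.

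**Figure D3:**
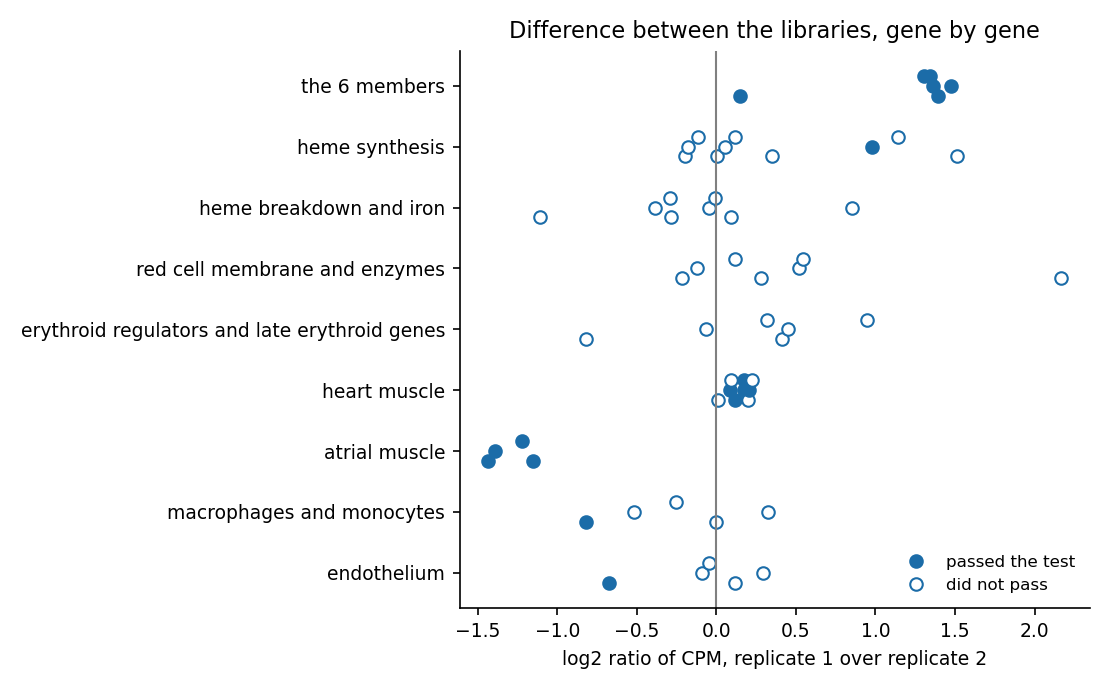
log2 ratio of CPM, replicate 1 over replicate 2, for each tested gene of the lists named at the left; filled points passed the exact binomial test and open points did not. The 5 blood genes lie together above 1, the other filled point of the heme synthesis list is Alas1, and the 4 atrial markers lie below -1.

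The genes most like the globins in their ratio, among those with at least 30 reads, were Fbl, Plpp7, Sms, Rrs1 and Slc25a51. Their log2 ratios were 1.37, 1.36, 1.39, 1.42 and 1.31, beside 1.37 for the 4 globins summed, over 2 libraries. None of the 5 passed the test, with 32 to 52 reads each over both libraries. Of 7545 tested genes 160 had a log2 ratio above that of the 4 globins summed. The called genes at least 2-fold higher in replicate 1 numbered 28, with the 5 blood genes among them. The genes most like Mb in level were Myl3, a myosin light chain, Cox6a2, a subunit of cytochrome c oxidase in muscle, Ckm, muscle creatine kinase, Uqcrq and Tpm1. Myl3, the nearest, had 4568 reads in each library, and its CPM lay within 0.06 of that of Mb on the log2 scale in both.

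The reads of the 6 genes fell into 59 transcript models, 13 of them annotated and 46 new, and 34 of the 59 were found in both libraries. Long reads are assigned to a model of their own when their splices do not match a whole annotated transcript. Classes used in the files are known, incomplete match to a known transcript, new combination of known splice sites, new splice site, and genomic, which stands for unspliced or otherwise unresolved reads. Of the 59 models 19 rested on 1 read, and 33 with under 5 reads held 41 reads in replicate 1 and 17 in replicate 2.

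Where reads began can be told from these models only to a limited extent. Of the 46 new models 29 start exactly at an annotated transcript start, 13 at another annotated exon end or 3′ end, and 4 elsewhere, and all 46 end at an annotated 3′ end. Model ends therefore carry the annotation's coordinates, and the first base of a read is not recorded. Splices at the 5′ side are the measure of the start used here.

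Mb spans chr15:77015487-77050670 on the minus strand (GRCm38, GENCODE M21) and has 6 annotated coding transcripts, each with a start of its own. Transcript Mb-203, of 3 exons, starts at 77022787 and carried 1492 and 1446 reads, 94.4% and 94.9% of the reads of spliced models. Its first exon of 299 bases holds 204 bases before the start codon. Mb-201 starts 60 bases downstream and splices an 80-base intron out of the same region, and it had 12 and 11 reads. That upstream intron, with 1 further read at a shifted site in replicate 1, appeared in 13 of 1509 and 11 of 1460 reads spliced out of the first coding exon (0.861% and 0.753%). Mb-206, which starts 824 bases downstream, had 2 reads in each library. The distal first exons of Mb-204, 3338 bases upstream, and of Mb-202 and Mb-205, 27883 and 27782 bases upstream, had 0 of 1581 and 0 of 1523 spliced reads, which allows up to 0.233% and 0.242% (exact 95% interval).

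The annotated first exon of Mb-203 holds a TATAA of its own, 118 bases after its annotated start and inside the intron of Mb-201. Similar letters lie inside the annotated first exons of Hba-a1-201, whose GENCODE start is 161 bases upstream of RefSeq's, and of Hbb-bt-201, whose start is 73 bases upstream of RefSeq's. In Hba-a1 and Hbb-bt the TATAA begins 27 and 28 bases before the RefSeq start, as it does 30 and 29 bases before it in Hba-a2 and Hbb-bs. The sites are printed with TATAA in capitals. RefSeq and GENCODE differ in the start for Hba-a1 and Hbb-bt, whereas for Mb the nearest RefSeq start is that of Mb-203.
Mb, chr15:77022658-77022678, minus strand: tgggaaggTATAAaagccctt
Hba-a1, chr11:32283637-32283657, plus strand: ggagggcaTATAAgtgctact
Hbb-bt, chr7:103813939-103813959, minus strand: attgggtaTATAAagctgagc
Since all reads that match the splices of a known transcript take its annotated start, the 10067 and 4233 reads of Hba-a1-201 do not show that RNA reached its upstream start. The same holds for the 291-base first exon of Hba-a1-201 against the 130-base first exon of Hba-a2-201.

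Most Mb reads lay in models of 1 exon, which cross no splice site and so do not show whether their RNA was spliced. A new model of 1 exon in the genomic class held 3183 reads in replicate 1 and 3134 in replicate 2. With 1 further read in another model, models of 1 exon held 66.8% of Mb reads [65.5 to 68.2] and 67.3% [65.9 to 68.6]. The large model lies wholly inside the last exon, on the gene's strand, at chr15:77015487-77015817 in replicate 1 and chr15:77015487-77015905 in replicate 2. Its upper ends are the annotated 3′ ends of Mb-205 and Mb-201 and lie 112 and 24 bases beyond the last coding base. The model as drawn covers untranslated sequence only, but because model ends carry annotated coordinates, where its reads began is not known. Annotated coding transcripts held 31.6% and 31.3% of Mb reads. A 2-exon model that lacks the first exon added 62 and 55 reads. A further model, with a first exon of 341 bases that ends 102 bases beyond the annotated splice site, had 3 reads in each library.

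The globins differed from Mb in this. Models of 1 exon held 2.14% of globin reads in replicate 1 and 2.42% in replicate 2, from 1.24% for Hba-a1 to 3.87% for Hbb-bs in replicate 1 and from 1.54% to 4.33% in replicate 2. Over 709 and 763 genes with at least 100 reads in a library the median share was 4.08% and 4.46%, and 51 and 53 of them lay above Mb. Mb was thus high but not alone, and each globin lay below the median. Known coding transcripts held 95.8% and 95.6% of globin reads. Alas2, whose leading transcript has 11 exons and 2037 bases, had 81.2% and 77.8% of its reads in known coding transcripts, and 10 and 5 reads in models that begin further inside the gene.

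**Figure D4:**
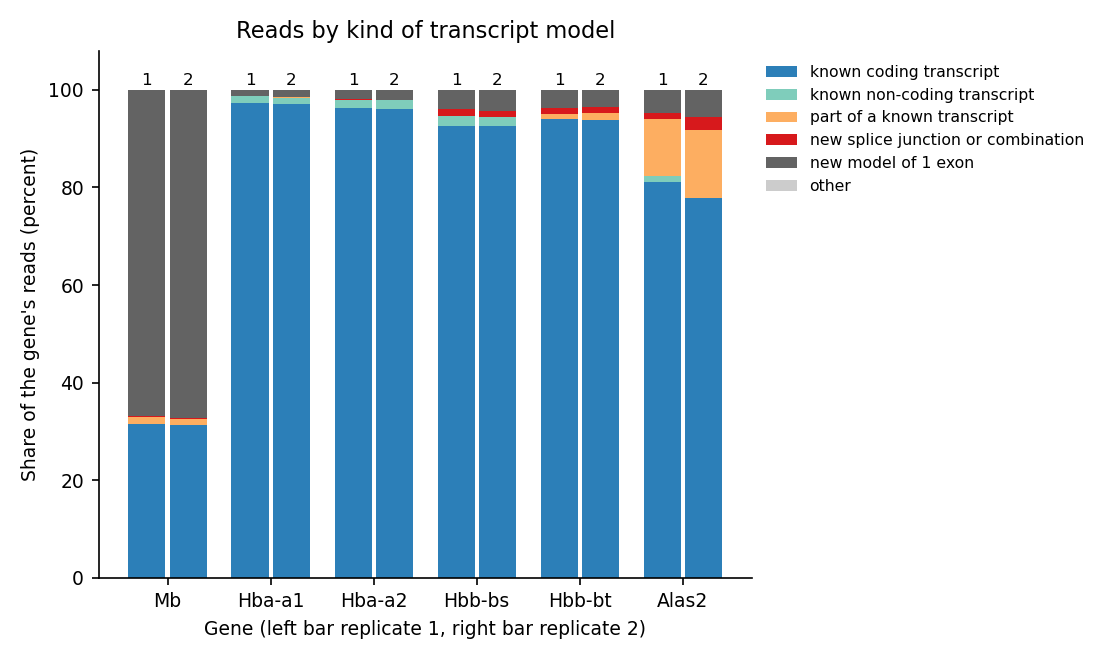
Share of each gene's reads in percent by kind of transcript model, replicate 1 in the left bar and replicate 2 in the right bar. Models of 1 exon take 66.8% and 67.3% of Mb reads, and annotated coding transcripts take 92.6% to 97.3% for the globin genes.

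The transcript make-up of the members differed little between the libraries. The share of the leading transcript, with the genomic class left out, was 94.6% and 94.9% for Mb, 97.3% and 97.1% for Hba-a1, 96.4% and 96.2% for Hba-a2, 96.3% and 96.8% for Hbb-bs, and 97.7% and 97.2% for Hbb-bt. For Alas2 it was 67.1% and 69.4%. None of the 6 passed Fisher's exact test, against 0.759% of 4218 genes tested. None passed for the share of known transcripts either, against 0.147% of 4765 genes. The adjusted p was 1 in each case, Benjamini-Hochberg over all genes tested.

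Transcripts annotated as retaining an intron held a small part of the globin reads. Hba-a1-202 and Hba-a2-202, annotated transcripts that begin inside intron 1 and read on into exon 2, had 147 and 59 and 44 and 20 reads. Hbb-bs-202, which begins inside intron 1 as well, had 102 and 37 reads. Together these held 1.56% and 1.47% of globin reads. Each is defined by the splice of intron 2 alone, so reads of the leading transcript that lack exon 1 could match it. Retention of intron 1 was thus not shown by these reads. A model drawn with intron 2 of Hba-a1 kept had 6 and 2 reads, and a model of Hbb-bt drawn with intron 1 kept had 9 and 5. Both are classed as incomplete matches and carry annotated ends, so whether their reads covered the intron is not known. For Hbb-bs an upstream first exon, known from Hbb-bs-203, was spliced to the gene in 3 of 4673 and 1 of 1920 spliced reads, while Hbb-bs-203 itself had none.

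The beta pair shared new splice sites. Hbb-bs had 30 and 14 reads in a model whose exon 1 ends 4 bases downstream of the annotated site, and Hbb-bt had 6 and 1 reads with the same shift. Hbb-bs also had a model with 6 and 0 reads whose exon 1 ends 4 bases upstream. A 60-base intron inside exon 3, beginning 24 bases into that exon, appeared in 22 and 10 reads of Hbb-bs and in 2 and 2 reads of Hbb-bt. All 60 bases are coding. The sequence is shown because the new junction lies at the same place in both genes, with 12 bases of flank on each side and with the outer GT and AG of the 60 bases in capitals; the 84 printed bases were identical in the 2 genes.
Hbb-bs, chr7:103826698-103826781, minus strand: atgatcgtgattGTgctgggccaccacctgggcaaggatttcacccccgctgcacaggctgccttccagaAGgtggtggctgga
Hbb-bt, chr7:103812689-103812772, minus strand: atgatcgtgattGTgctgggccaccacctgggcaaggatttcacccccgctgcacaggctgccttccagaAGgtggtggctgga
This junction was present in 0.471% and 0.521% of spliced Hbb-bs reads and in 0.239% and 0.612% of spliced Hbb-bt reads.

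**Figure D5:**
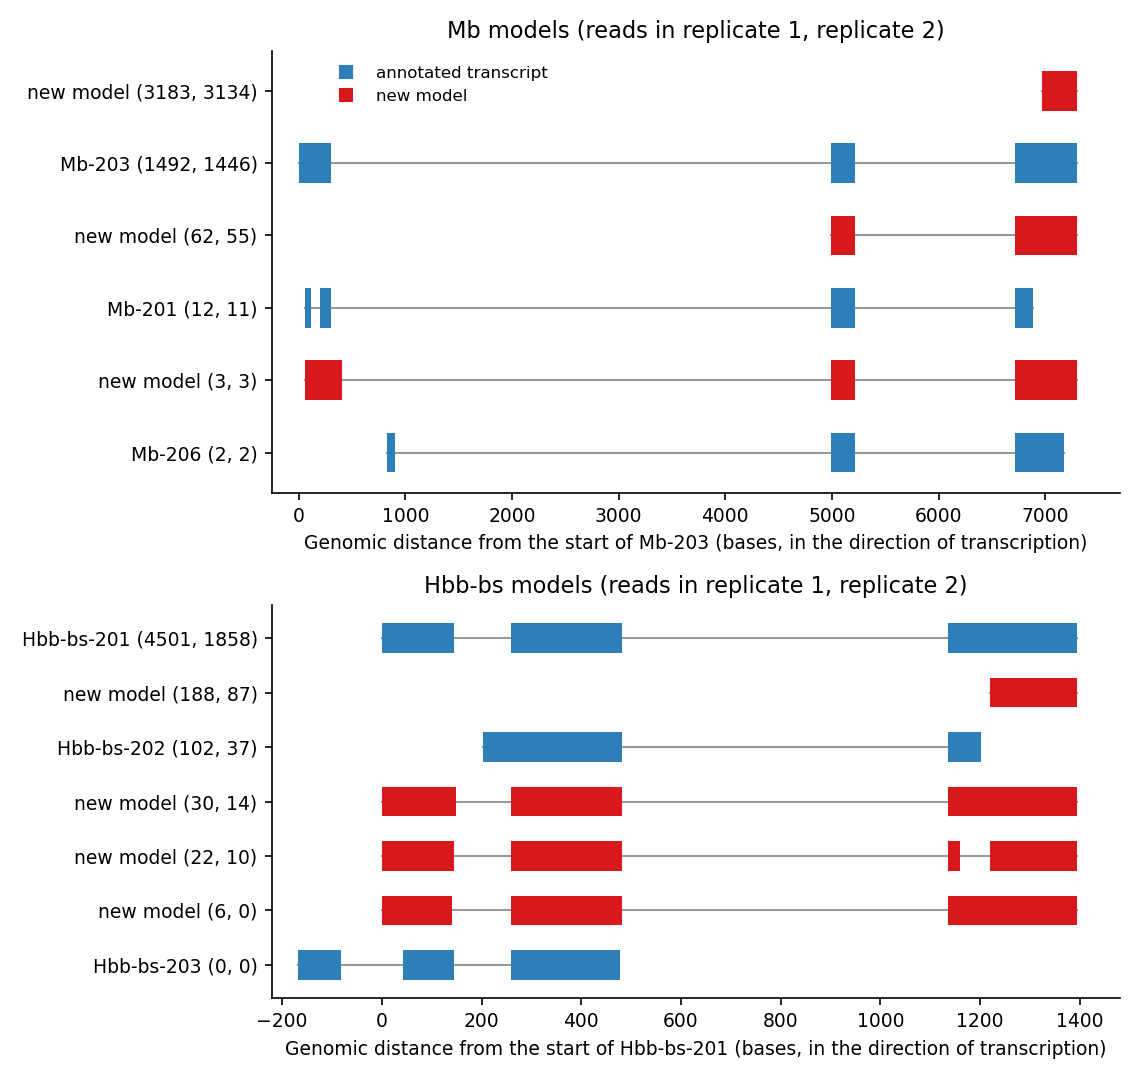
Exons of Mb models (top) and Hbb-bs models (bottom) by genomic distance in bases from the leading transcript's start, blue for annotated transcripts and red for new models, with reads in replicate 1 and replicate 2 in brackets. Models with at least 5 reads are drawn as in replicate 1, with annotated ones of fewer reads added, and the 3 Mb transcripts with distal first exons, all without reads, are left out. The 1-exon Mb model lies at the far end of the last exon, and the 60-base gap inside exon 3 of Hbb-bs is seen in the model with 22 and 10 reads.

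Alas2 spans chrX:150547375-150570638 on the plus strand. Alas2-201 had 57 and 25 reads, and Alas2-202, which starts 84 bases downstream within the same first exon and uses a shorter exon 3, had 12 and 3. The longer exon 3 was used in 61 of 74 reads spliced into that exon in replicate 1 (82.4% [71.8 to 90.3]) and in 26 of 31 in replicate 2 (83.9% [66.3 to 94.5]). The share was similar within these wide intervals. Alas2-204 had 1 read in replicate 1 and Alas2-203 none.

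Genes beside the alpha globin locus had few reads. Nprl3, which houses alpha globin enhancers in its introns, had 17 and 12 reads, Mpg 6 and 6, Rhbdf1 12 and 8 and Snrnp25 3 and 8. Of the models in the class antisense to a gene, 0 lay over the 6 genes.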

How the data were processed

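Long-read RNA sequencing of 2 heart libraries gave, per the file headers, raw counts of reads per transcript model, deposited by the authors together with exon coordinates. The submitters' processing notes name mm10 and GENCODE M21, and the models name TALON. The sources used here name no aligner, program version or filter. Rows at 0 reads are not listed. New models were matched across libraries by their introns or, with 1 exon, by at least 50% reciprocal overlap.

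Genes with at least 10 reads over both libraries were tested, two-sided, with the exact binomial test on TMM-scaled totals (edgeR 4.0.16, factors 0.986 and 1.01), and shares by Fisher's exact test with at least 10 reads in each library, adjusted by the Benjamini-Hochberg method over all genes and called at 0.05. Log2 ratios have 0.5 reads added. Intervals are exact Clopper-Pearson 95% intervals, those of share differences Newcombe's. All cover counting error only. The members and lists were chosen with earlier results of these data known. Named genes were the members, other globins with a read, the 4 most abundant and every called gene of a pathway list, the 3 most abundant and called genes of a marker list, the 5 most alike genes, and models with at least 5 reads. Names beyond these were chosen after their values were seen. Of 2 genes of 1 name, the one with more reads was used. The procedures were tested on simulated data. R 4.3.3 and DESeq2 1.42.0 gave other size factors, scipy 1.17.1 the tests, and pandas 2.3.3 (Python 3.11.15) the joins. Sequences are RefSeq's and GENCODE's. The ERCC library size, the setting without 1-exon models and the globin to Mb ratio and order from known transcripts were chosen after the data were seen. A marker gene is not reported here.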

Additional observations from a re-analysis of the deposited data

How the results depend on the processing

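The blood genes stayed past the threshold and higher in replicate 1 under all 8 alternatives of library size, read class and read minimum, with log2 ratios from 1.20 for Hba-a2 to 1.47 for Hbb-bt. The call of Mb was lost under 3 of them, at log2 ratios of 0.15 (known transcripts alone), 0.16 (genomic class left out) and 0.05 (ERCC reads as library size, which shifts the median of all tested genes by -0.10). ERCC scaling also changed the split of calls, from 65 higher and 91 lower in replicate 1 to 37 and 136. Known transcripts alone gave 102 called genes in place of 156. Keeping the genomic class gave 122 genes with a different leading transcript share in place of 32, and leaving it out gave 31 with a different share of known transcripts in place of 7. The 4 shares within the blood reads failed the test under each of 3 alternatives, with adjusted p from 0.550 to 0.577 for the alpha share. The level of Mb, 7290 CPM, was 6603 per kilobase, 3481 CPM of known-transcript reads and 2988 without 1-exon models, and 6913 to 7668 without 1 library. The summed globin level, 20992 CPM, was 11731 to 30254 without 1 library. No paired analysis was possible because the series has 1 group. With 1 library left no test is possible, so these are levels alone. Alas2 and Hbb-bt are limited by depth, with 36 and 339 reads in replicate 2.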
